A study of Mus musculus with 25 samples.

Results

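The genes described here encode 8 cation channels of the transient receptor potential (TRP) superfamily, Trpm2, Trpm3, Trpm4, Trpm5, Trpm7, Trpc1, Trpc4 and Trpv2, in the mouse islet tumour cell lines αTC1 (alpha TC1 clone 6, glucagon-producing) and βTC6 (beta-TC-6, insulin-producing). They were taken by gene symbol from 24439 genes in the RNA-seq tables, together with the 26 of 65053 consensus ATAC-seq peaks (regions of open chromatin) annotated to them as nearest gene. Trpm3 held 13 of these peaks, Trpc4 held 4, Trpc1 held 3, Trpm5 held 2, and Trpm2, Trpm4, Trpm7 and Trpv2 held 1 each. Both lines come from islet tumours of transgenic mice, and αTC1 clone 6 is a single clone. The samples were pure αTC1 and βTC6 cultures, with 3 RNA-seq and 5 ATAC-seq libraries per line, and 9 ATAC-seq libraries of αTC1 and βTC6 cells counted and mixed in 10% steps, with 1 library per step. The lines were grown in different media, so line and medium cannot be told apart, and nothing in the labels says that replicates were separate cultures, so that p-values measure the spread between these libraries only.

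TRP channels are membrane pores for sodium, potassium and often calcium that open in response to lipids, heat, calcium, oxidants or receptor signals. In islet endocrine cells, an inward cation current of this kind adds to the depolarization set by ATP-sensitive potassium channels, and so bears on calcium entry and hormone release. TRPM5 and TRPM4 open when intracellular calcium rises and pass sodium and potassium, TRPM2 is opened by ADP-ribose and oxidants, TRPM3 responds to pregnenolone sulfate and heat, TRPC1 and TRPC4 act downstream of receptors that activate phospholipase C, TRPV2 moves to the cell surface after growth factor or insulin signals, and TRPM7 joins a magnesium-permeable pore to a protein kinase.

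The lines carried the hormone genes of their labels. The 5 alpha markers summed to between 12354 and 14703 FPKM (fragments scaled to transcript length and library size) in αTC1 and between 194 and 283 FPKM in βTC6, of which Gcg itself held 172 to 267 FPKM, and Ins2 was 23541 to 35748 FPKM in βTC6 against 0.19 to 0.64 FPKM in αTC1. The βTC6 libraries also held Sst, the delta cell hormone, at 207 to 325 FPKM and Ppy at 3.70 to 50.8 FPKM, against at most 0.10 FPKM for both in αTC1. Hhex, the other delta cell gene examined, went the other way, at 0.06 to 0.13 FPKM in αTC1 and at most 0.02 FPKM in βTC6. The part of these genes in the channel levels was not tested. Markers of acinar, duct, mesenchymal, immune and endothelial cells summed to at most 4.42 FPKM per list in any library. Total counts ran from 21954031 to 26033482 per RNA-seq library, and reads in peaks from 4397851 to 10374903 per ATAC-seq library. In RNA-seq, the chi-square per degree of freedom between libraries of a line was 2.06 for αTC1 replicates 1 and 2 and 17.3 to 38.4 for the other pairs in both lines, so αTC1 replicates 1 and 2 were unusually alike. In ATAC-seq it was 2.05 to 2.16 among αTC1 replicates 1 to 3 and 10.0 to 11.3 between these and replicates 4 and 5, and in βTC6 2.26 to 2.55 and 4.47 to 8.28. Between replicates 4 and 5 it was 4.72 in αTC1 and 8.52 in βTC6. Replicates 1 to 3 of each line thus form a set, while replicates 4 and 5 of βTC6 do not. SDs and SEs over the 5 libraries of a line treat them as independent. Results are also given without a library where they change.

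The sequences below are the central 300 bases of the peak with the largest absolute log2 fold change of value + 1 between the lines, at each of 5 genes. They are shown because the accessibility of each of these elements separated αTC1 from βTC6 beyond the spread of the replicates. At Trpc4 the choice depends on the measure. By the ratio of mean reads its peaks 96214 and 138956 bp upstream were at 6.63-fold and 5.91-fold, against 4.42-fold for the peak shown. The sequences were read from mm9 on the plus strand, 5′ to 3′. Capitals mark matches, on either strand, to any of 8 letter patterns: CAGCTG (E-box), TAATTA (homeodomain), TGTTTAC (forkhead), TGCTGAC (core of the MAF element), TGACGTCA (cAMP response element), CCAAT (NF-Y), the HNF1 palindrome and GTTGCC (part of the RFX site). No match overlapped another in the windows of the 26 peaks.
Trpm5, 12630 bp into the gene (chr7:150267768-150268067, 60 bases of it exonic): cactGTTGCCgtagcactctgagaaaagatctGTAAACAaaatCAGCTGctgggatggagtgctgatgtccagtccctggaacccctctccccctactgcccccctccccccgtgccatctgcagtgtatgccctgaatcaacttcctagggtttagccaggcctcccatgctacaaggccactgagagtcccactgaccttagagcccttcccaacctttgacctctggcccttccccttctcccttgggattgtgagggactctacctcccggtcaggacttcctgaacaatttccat
Trpm2, 1517 bp upstream of the start site (chr10:77433985-77434284, intergenic): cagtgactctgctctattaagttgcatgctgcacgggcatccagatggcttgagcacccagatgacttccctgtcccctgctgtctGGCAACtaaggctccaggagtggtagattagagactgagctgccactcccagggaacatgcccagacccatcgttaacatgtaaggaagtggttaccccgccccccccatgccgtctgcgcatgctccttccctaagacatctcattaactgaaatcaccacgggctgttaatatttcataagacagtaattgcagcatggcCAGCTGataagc
Trpm3, 98380 bp upstream of the start site (chr19:22115077-22115376, intergenic): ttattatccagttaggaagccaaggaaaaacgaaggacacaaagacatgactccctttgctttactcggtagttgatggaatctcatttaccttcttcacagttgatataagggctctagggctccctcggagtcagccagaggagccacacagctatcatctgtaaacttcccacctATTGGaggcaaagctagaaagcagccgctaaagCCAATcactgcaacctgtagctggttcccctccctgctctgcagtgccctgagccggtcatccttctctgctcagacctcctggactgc
Trpc4, 263 bp upstream of the start site (chr3:53959566-53959865): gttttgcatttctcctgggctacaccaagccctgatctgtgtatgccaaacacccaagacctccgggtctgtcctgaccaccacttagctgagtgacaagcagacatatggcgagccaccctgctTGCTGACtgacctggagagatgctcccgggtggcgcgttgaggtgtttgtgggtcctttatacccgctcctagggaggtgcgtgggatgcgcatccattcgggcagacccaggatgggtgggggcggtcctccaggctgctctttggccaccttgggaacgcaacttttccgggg
Trpc1, 33605 bp upstream of the start site (chr9:95684233-95684532, inside Pls1, 14 bases of it exonic): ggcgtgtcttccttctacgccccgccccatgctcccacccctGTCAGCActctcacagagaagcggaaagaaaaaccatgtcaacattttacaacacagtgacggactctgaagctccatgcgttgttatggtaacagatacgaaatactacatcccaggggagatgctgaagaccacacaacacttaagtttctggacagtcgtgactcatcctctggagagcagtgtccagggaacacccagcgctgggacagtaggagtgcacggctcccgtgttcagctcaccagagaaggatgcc

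The Trpm5 element held an E-box, a forkhead and an RFX match within its first 49 bases. Across equal windows of all 65053 peaks, these patterns were found in 23.8%, 8.80% and 12.3%. The Trpm2 element held an RFX and an E-box match, and the Trpc4 and Trpc1 elements a MAF match each, a pattern found in 7.01% of all windows. The Trpm3 element held a pair of CCAAT matches. A CCAAT match, single or repeated, was found in 32.8% of all windows, and the share with a pair was not computed. The homeodomain, cAMP response and HNF1 patterns, found in 9.86%, 1.06% and 0.0446% of all windows, did not occur in these 5 windows. A match is a run of letters and does not show that a factor binds there.

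The first comparison asked which of the channel genes differed in RNA between the lines. Of the 8 genes, 6 met the study's level filter (1 FPKM or more in every library of a line) and were tested with edgeR's quasi-likelihood test, and all 6 met it in both lines. Trpm5, Trpv2, Trpm2 and Trpc1 were higher in βTC6 at a false discovery rate (FDR, Benjamini-Hochberg over all 12195 genes tested) under 5%, none was lower, and Trpm4 and Trpm7 did not pass. Among all genes tested, 38.7% were higher in βTC6 and 36.0% lower (74.6% together), so that a call in itself was common. With the study's added requirement of an absolute log2 fold change (log2 FC) above 2, only Trpm5 remained, against 10.2% of all genes higher and 4.08% lower (14.3% together). The median log2 FC of the 6 genes was 0.87, against 0.01 over all genes tested. The FPKM ranges of the lines did not overlap for 4 of the 6 genes tested, against 77.7% of all genes tested. RNA in bulk libraries cannot separate fewer expressing cells from less RNA per cell.

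**Figure D1:**
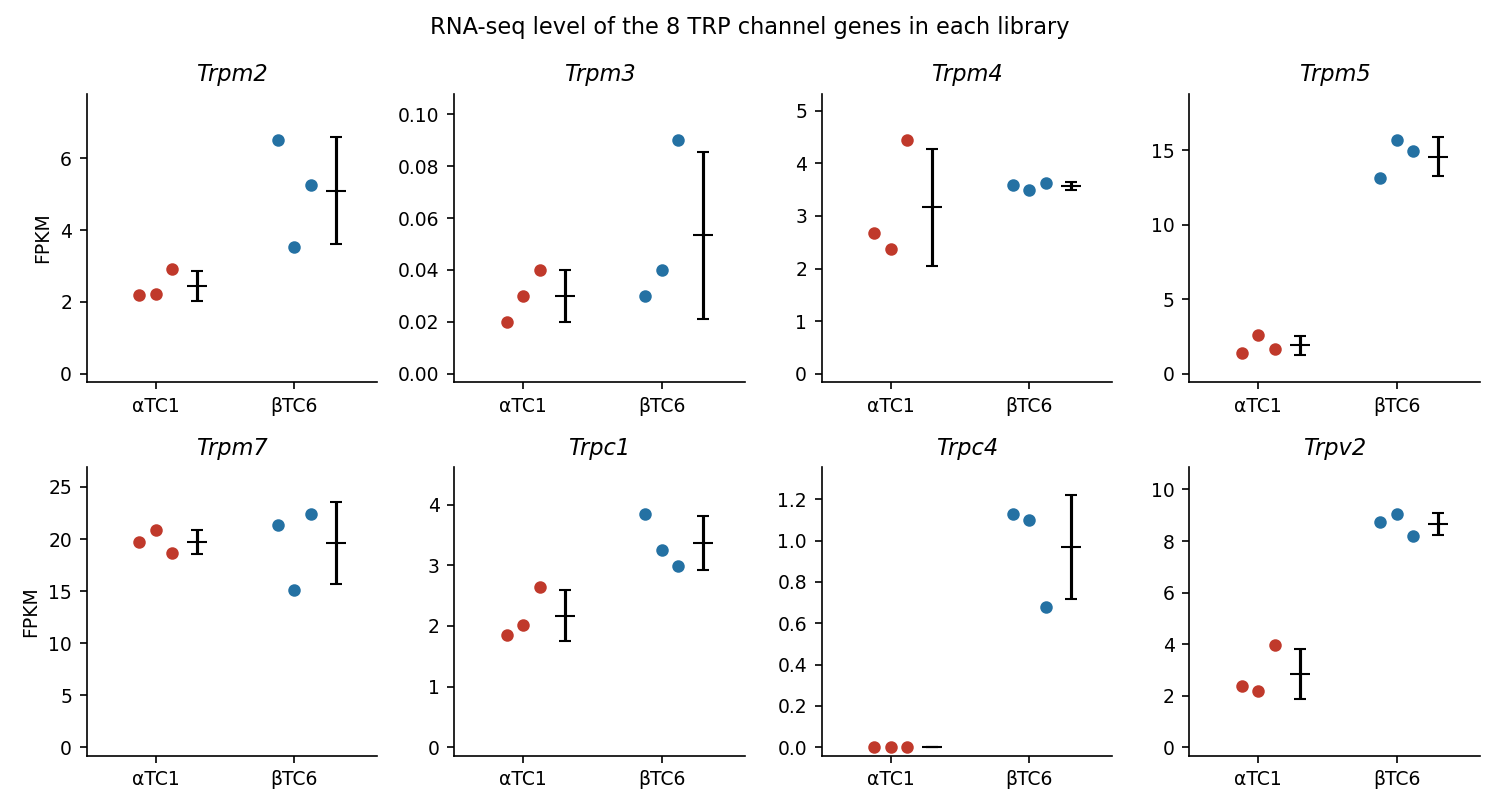
RNA-seq level (FPKM, vertical axis, a separate linear scale for each gene) of the 8 TRP channel genes. Points are the 3 αTC1 (red) and 3 βTC6 (blue) libraries and the bar beside them is the mean ± SD; the lines do not overlap for Trpm5, Trpv2, Trpm2, Trpc1 and Trpc4, and overlap for Trpm4, Trpm7 and Trpm3.

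Trpm5 showed the largest difference of the 6. This gene (ENSMUSG00000009246, chr7:150255058-150280547, minus strand, mm9) was at 1.41, 2.61 and 1.69 FPKM in αTC1 and at 13.1, 15.7 and 14.9 FPKM in βTC6. Every βTC6 library lay far above every αTC1 library. The underlying estimated counts were 98.0, 133 and 116 against 945, 1024 and 872, which gave a log2 FC of 2.99 ± 0.12 (SE, edgeR, FDR 7.95e-08), or 7.96-fold. Its annotated span overlaps Tssc4, on the opposite strand, by 1845 bp, with 220 of its 6398 exon bases shared. Tssc4 was 75.0 ± 4.34 FPKM in αTC1 and 149 ± 6.89 FPKM in βTC6 (SD, n = 3), and RSEM was run with its default settings, which do not use strand, so reads of the 2 genes cannot be told apart in the shared bases.

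Trpm4, the calcium-activated relative of Trpm5, did not pass. It (ENSMUSG00000038260, chr7:52558002-52589150, minus strand) was at 2.68, 2.37 and 4.44 FPKM in αTC1 and at 3.59, 3.49 and 3.63 FPKM in βTC6. The αTC1 range enclosed the βTC6 range, and the log2 FC was 0.23 ± 0.22 (SE, edgeR, FDR 0.363). The high αTC1 value came from replicate 3, and without that library the log2 FC was 0.56 (edgeR, FDR 0.00331). That fit kept αTC1 replicates 1 and 2, the unusually alike pair, so its spread within αTC1 may be understated. The span of Trpm4 overlaps the pseudogene Rpl14-ps1 on the opposite strand.

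Trpv2 (ENSMUSG00000018507, chr11:62387988-62414017, plus strand) was at 2.38, 2.2 and 3.96 FPKM in αTC1 and at 8.75, 9.06 and 8.21 FPKM in βTC6. The lines did not overlap, and the log2 FC was 1.65 ± 0.19 (SE, edgeR, FDR 3.88e-05), or 3.14-fold. The oxidant-sensitive Trpm2 (ENSMUSG00000009292, chr10:77370467-77433308, minus strand) was at 2.18, 2.23 and 2.91 FPKM in αTC1 and at 6.50, 3.53 and 5.25 FPKM in βTC6. All 3 βTC6 libraries lay above αTC1 but were spread widely, and the log2 FC was 1.07 ± 0.22 (SE, edgeR, FDR 0.00162). Scaling on the ERCC spike-in RNAs instead of TMM left the log2 FC of Trpm2 at 1.07 with an FDR of 0.0530, above the threshold.

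Trpc1 (ENSMUSG00000032839, chr9:95607046-95650777, minus strand), a subunit of receptor-operated channels, was at 1.85, 2.02 and 2.64 FPKM in αTC1 and at 3.85, 3.26 and 2.98 FPKM in βTC6. Its ranges were close without overlapping, with a log2 FC of 0.68 ± 0.19 (SE, edgeR, FDR 0.00831). Under ERCC scaling the log2 FC was again 0.68, with an SE of 0.47 and an FDR of 0.296. Trpc4 (ENSMUSG00000027748, chr3:53959979-54122389, plus strand), of the same subfamily, had 0 counts in each αTC1 library and 92, 93 and 57 counts in βTC6. These are 1.13, 1.1 and 0.68 FPKM, so Trpc4 missed the FPKM minimum by 1 library and was left out of the test. With every gene that had at least 1 count tested instead, it passed (edgeR, FDR 9.53e-07), and 5 of the 8 genes passed against 57.4% of the 19570 genes then tested. Set against a floor of 3 counts per library, the mean of Trpc4 in βTC6 was at least 26-fold higher than in αTC1. That mean was 3.25 ± 0.76 CPM (SD, n = 3), which are counts scaled to the TMM-adjusted library size of the genes tested.

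The channel kinase Trpm7 (ENSMUSG00000027365, chr2:126617301-126701966, minus strand) had the highest mean level of the 8 genes in both lines, at 19.7, 20.9 and 18.6 FPKM in αTC1 and 21.4, 15.2 and 22.4 FPKM in βTC6. The βTC6 range enclosed the αTC1 range, with a log2 FC of -0.10 ± 0.12 (SE, edgeR, FDR 0.472). Without βTC6 replicate 2, the lowest library, the log2 FC was 0.03. Trpm3 (ENSMUSG00000052387, chr19:22213609-23064374, plus strand) was close to absent in both lines, at 0.02 to 0.04 FPKM in αTC1 and 0.03 to 0.09 FPKM in βTC6, and no difference was detectable at this depth.

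The order of the FPKM levels, which are per length of transcript, differed in its upper part. In αTC1, Trpm7 (mean 19.7 FPKM) stood clear of Trpm4 (3.16), Trpv2 (2.85), Trpm2 (2.44), Trpc1 (2.17) and Trpm5 (1.90), of which each neighbouring pair overlapped. In βTC6, Trpm7 (19.7 FPKM) and Trpm5 (14.6) overlapped, Trpv2 (8.67) lay clear below them, and Trpm2 (5.09), Trpm4 (3.57) and Trpc1 (3.36) followed, with neighbours overlapping. By mean level, Trpm5 was thus the sixth of the 8 in αTC1 and the second in βTC6. The 3 genes tested with levels most like those of Trpm5, by Euclidean distance of log2(FPKM + 1) over the 6 libraries, were C77080 (distance 0.48), Ctso, which encodes cathepsin O (0.55), and Phactr1 (0.56).

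Of 19 other TRP genes, 5 were tested. Of these, 3 met the level filter in both lines, of which 2 were higher and 1 lower in βTC6 (38.7% and 36.0% of all genes), and Pkd2l1 and Pkd2l2 met it in βTC6 only, so that the filter favoured the direction of their difference. The polycystin gene Pkd2l1 had 0 counts in every αTC1 library and 2.02, 1.38 and 1.87 FPKM in βTC6, at least 48.5-fold higher against the same floor. Pkd2l2, of the same family, was at 0.69 to 0.81 FPKM in αTC1 and 1.02 to 1.42 FPKM in βTC6 (log2 FC 0.79). The lysosomal channel gene Mcoln1 (log2 FC 1.2) and the polycystin gene Pkd2 (0.39) were higher in βTC6 by the count test, although the FPKM of Pkd2 overlapped between the lines, and Trpc2 was lower (log2 FC -0.62). The other 14, among them Trpa1, Trpv1, Trpc5, Trpc6 and Trpm8, were at or below 0.22 FPKM in every library.

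**Figure D2:**
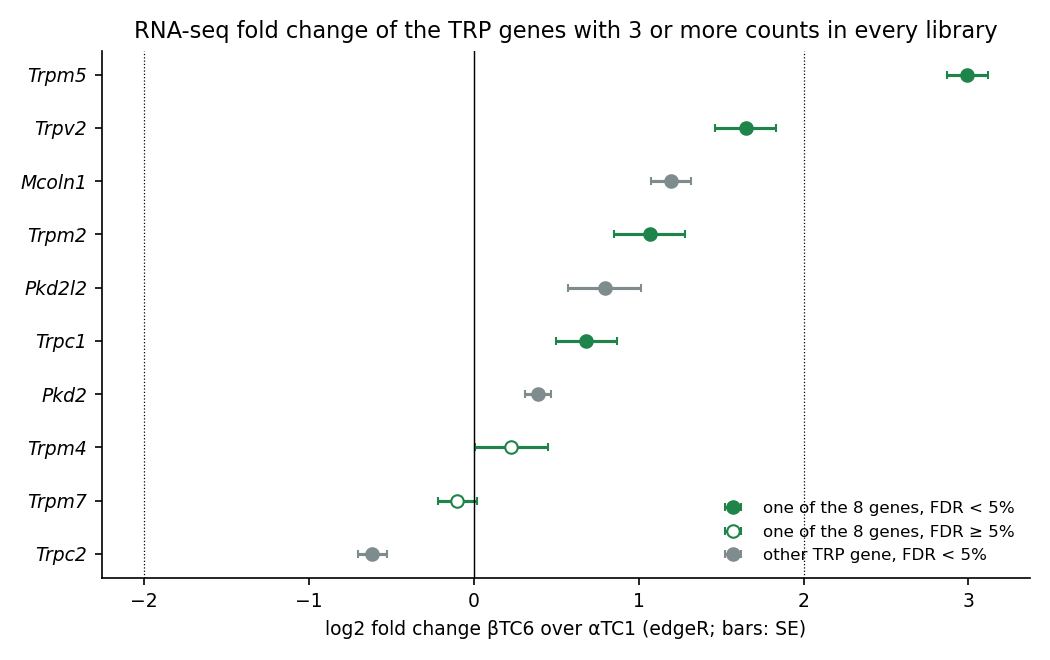
Log2 fold change (horizontal axis, βTC6 over αTC1, edgeR) with its SE for the 10 TRP genes tested that had at least 3 counts in every library, those among the 8 described here in green and the others in grey. Filled points passed the 5% FDR and dotted lines mark log2 FC of 2 and -2; only Trpm5, at 2.99, lies beyond them.

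The signalling genes around these channels included calls in both directions, as did all genes. Among 19 genes that couple receptors to phospholipase C, which cuts the membrane lipid that regulates many TRP channels, 12 were tested and none had an absolute log2 FC above 2. Of the 11 that met the level filter in both lines, 6 were higher and 4 lower in βTC6, with a median log2 FC of 0.33, against 38.7% and 36.0% of all genes tested and a median of 0.01. The higher ones included Pip5k1b (log2 FC 1.61), a kinase that makes the lipid, and the phospholipases Plcb4 (0.93) and Plcg1 (0.83), and the lower ones Pip5k1a (-1.48), another such kinase, and Dgkz (-1.10), which removes diacylglycerol. The phospholipase Plcg2 met the filter in βTC6 only (log2 FC 1.21). Among 18 genes that supply or clear the ADP-ribose and oxidants that open TRPM2, 12 were tested. Of the 11 that met the filter in both lines, 3 were higher, 4 were lower and the median log2 FC was -0.06, against the same shares and median over all genes. Parg (1.26), which releases ADP-ribose from its polymer, and Parp2 (0.97) were higher, while Parp1 (-0.996), the main polymer-making enzyme, was lower. Of the hydrolases that break ADP-ribose down, Nudt5 (-0.75) was lower and Nudt9 (0.48) higher. Cat, which encodes catalase, met the filter in βTC6 only, at 0.17 to 0.37 FPKM in αTC1 and 1.45 to 2.78 FPKM in βTC6 (log2 FC 3.44). Cd38, which also makes ADP-ribose, was at or below 0.05 FPKM in every library. Of 9 genes of the taste cell cascade that ends in TRPM5, only Itpr3, an intracellular calcium release channel, was tested. It met the filter in βTC6 only, at 0.13 to 0.18 FPKM in αTC1 and 1.35 to 3.05 FPKM in βTC6 (log2 FC 3.80). The others, including Plcb2, Gnat3 and the taste receptor genes Tas1r2 and Tas1r3, were at or below 0.94 FPKM in every library.

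The second comparison asked whether chromatin near the channel genes differed between the pure lines. Values are the normalized read counts the authors deposited, tested as log2(value + 1) with limma, so fold changes of low peaks are understated. Of the 26 peaks, 19 were more open in βTC6 and 4 were less open, against 39.9% and 38.1% (78.0% together) of all 65053 peaks, and 3 did not pass. The study's fold requirement left 5 more open and 1 less open, against 12.9% and 5.38% (18.3% together) of all peaks. The lines did not overlap in 17 of the 26 peaks, against 63.9% of all peaks. Peaks of 1 gene share a locus, and 13 of the 26 belong to Trpm3, so they are not independent. The study's quality sheet computes the mitochondrial share in another way for replicates 1 to 3 than for replicates 4 and 5 and the mixtures. Within the first set 18 peaks were more open and 3 less, against 38.2% and 36.4% of all peaks, and within the second 13 and 3, against 32.7% and 27.6%. Of the 8 promoter peaks (within 2 kb of a start site), 4 were more open and 2 less open, against 23.3% and 52.3% of all promoter peaks. Of the 18 distal peaks 15 were more open and 2 less, against 44.6% and 34.0% of all distal peaks. With the median of each chromosome removed within each library, 13 of the 26 were more open and 4 less. This alternative moved the median log2 FC of all peaks by -0.34, and the split over all peaks was 21096 more and 31434 less open, against 25942 and 24799. Past the fold requirement it left 3 of the 26 peaks and 9968 of all 65053, against 6 and 11911 in the main fit.

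**Figure D3:**
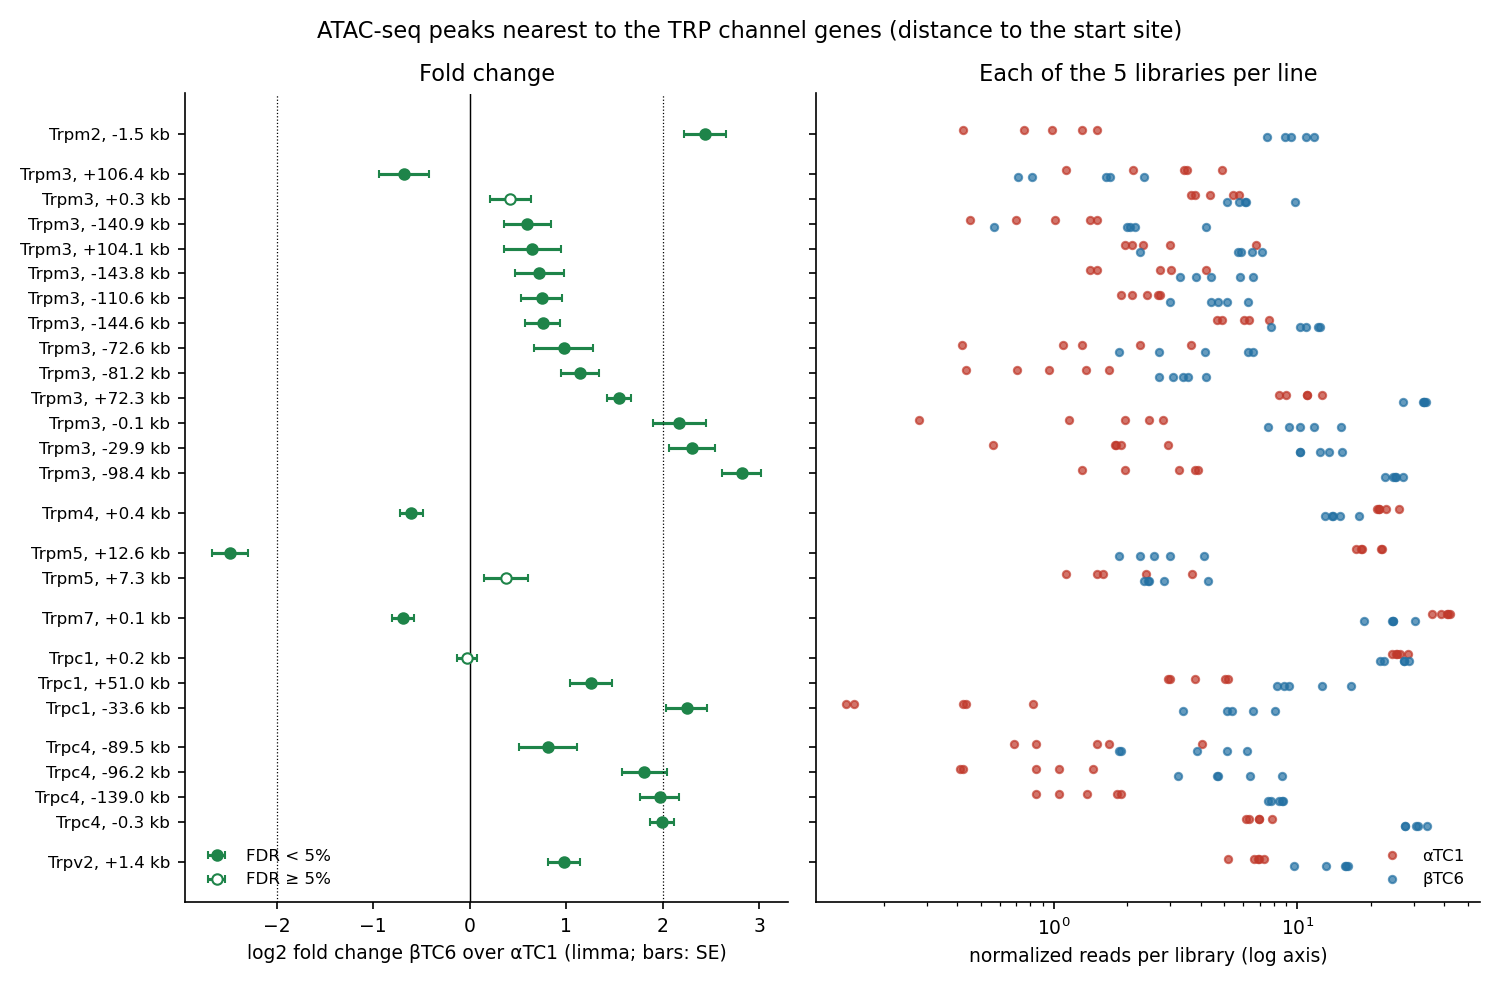
Left, log2 fold change (βTC6 over αTC1, limma) with its SE for the 26 peaks, labelled with the nearest gene and the distance to its start site, filled where the FDR was under 5%, with dotted lines at 2 and -2. Right, normalized reads on a log axis in each of the 5 αTC1 (red) and 5 βTC6 (blue) libraries; the Trpm5 peak at 12630 bp is the one with αTC1 far above βTC6.

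The Trpm5 element ran against the RNA of its gene. The peak 12630 bp into Trpm5, which spans 581 bp and an exon, held 17.4, 22.1, 18.3, 18.3 and 22.2 normalized reads in αTC1 and 2.98, 1.85, 2.57, 4.14 and 2.25 in βTC6. All αTC1 libraries lay well above all βTC6 libraries, with a log2 FC of -2.48 ± 0.18 (SE, limma, FDR 2.75e-10). Peaks on chromosome 7 had a median log2 FC of -0.57, and relative to it the value was -1.91, under the fold requirement. With the chromosome median removed in each library before the test it was -2.19 (limma, FDR 8.03e-10), past the requirement. The other Trpm5 peak, 7307 bp into the gene, was weak, at 2.06 ± 1.02 and 2.87 ± 0.81 normalized reads (SD, n = 5 per line), and did not pass (log2 FC 0.38, limma, FDR 0.135). It passed without αTC1 replicate 4 (log2 FC 0.55, FDR 0.0279) and with chromosome medians removed in each library (log2 FC 0.67, FDR 0.00758). No peak was annotated to the Trpm5 start site, so the promoter was not compared.

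At Trpm2, the peak 1517 bp upstream held 0.98, 0.42, 0.75, 1.5 and 1.30 normalized reads in αTC1 and 10.8, 9.43, 8.92, 11.7 and 7.51 in βTC6. The αTC1 values rest on 3 to 11 reads per library, against 46 to 82 in βTC6. The lines were far apart, with a log2 FC of 2.44 ± 0.22 (SE, limma, FDR 3.94e-09), the same direction as the RNA. At Trpv2, the peak 1373 bp from the start site was at 6.59 ± 0.815 normalized reads in αTC1 and 14.1 ± 2.73 in βTC6 (SD, n = 5), without overlap (log2 FC 0.98, limma, FDR 2.26e-05), again with the RNA.

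Trpc4, with 0 RNA counts in αTC1, had a low signal at its start site there. Its promoter peak, of 2198 bp, held 6.30, 7.87, 6.16, 6.96 and 6.93 normalized reads in αTC1 and 34.1, 27.7, 31.4, 27.5 and 30.7 in βTC6. The αTC1 signal was low and even, from 41 to 56 reads per library, and the log2 FC was 1.99 ± 0.12 (SE, limma, FDR 1.83e-11), just under the fold requirement. The value was past it with a pseudocount of 0.5 (2.07), under quantile normalization (2.01) and with edgeR on reads (2.14), so this peak stood at the limit of that call. Its 3 intergenic upstream peaks were all more open in βTC6, against 44.6% of all distal peaks, with log2 FC of 1.97 at 138956 bp, 1.81 at 96214 bp and 0.81 at 89474 bp, the last with overlapping lines.

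At Trpc1 the promoter peak did not pass and both distal peaks were more open in βTC6. The promoter peak was at 26.1 ± 1.53 normalized reads in αTC1 and 25.6 ± 3.09 in βTC6 (SD, n = 5), with a log2 FC of -0.03 ± 0.10 (SE, limma, FDR 0.803), while its RNA was higher in βTC6. The peak 33605 bp upstream, inside Pls1, held 0.14, 0.42, 0.15, 0.82 and 0.43 normalized reads in αTC1 and 5.4, 5.13, 3.38, 6.56 and 8.07 in βTC6. It was at the detection limit in αTC1, with 1 to 6 reads per library, and its log2 FC was 2.25 ± 0.21 (SE, limma, FDR 7.62e-09). The peak 50997 bp downstream of the start site, past the end of the gene, had a log2 FC of 1.26.

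Trpm3 had the most peaks and very little RNA. Of its 13 peaks, 11 were more open in βTC6, 1 less open and 1 did not pass, against 39.9% more open and 38.1% less open among all peaks. The intergenic peak 98380 bp upstream held 3.92, 3.79, 1.954, 3.28 and 1.30 normalized reads in αTC1 and 27.1, 25.2, 23.0, 25.4 and 24.6 in βTC6. Its βTC6 libraries were tightly grouped, with a log2 FC of 2.82 ± 0.20 (SE, limma, FDR 1.40e-10). This was the highest of the 26 peaks on log2(value + 1) only. With edgeR on reads it was 3.12, below the Trpm2 element at 3.26. By the ratio of mean reads it was 8.80-fold, below the Trpc1 element 33605 bp upstream (14.5-fold) and the Trpm2 element (9.76-fold). The peak 100 bp upstream of the first start site held 0.28, 2.81, 1.954, 2.46 and 1.16 normalized reads in αTC1 and 11.6, 10.3, 9.19, 7.56 and 15.1 in βTC6. The lines did not overlap (log2 FC 2.17 ± 0.28, SE, limma, FDR 5.63e-07), although Trpm3 RNA was near 0 in both. The peak 29916 bp upstream had a log2 FC of 2.30 and the first intronic peak, 72254 bp in, of 1.54. The peak 307 bp from an annotated start site far inside the gene did not pass (log2 FC 0.42, limma, FDR 0.0753). The intronic peak at chr19:22628999-22629270 was the only Trpm3 peak that was less open in βTC6 (log2 FC -0.68, limma, FDR 0.0216), and its lines overlapped. Its listed distance of 106437 bp is from another annotated start site inside the gene. Some Trpm3 peaks listed with upstream distances lie in its introns, since distances were taken from the nearest of its start sites. The gene body held 9 more peaks that were annotated to Mir204, a microRNA gene in an intron of Trpm3. Of these, 6 were more open in βTC6, none was less open, against the same 39.9% and 38.1% of all peaks, and their log2 FC ran from -0.01 to 2.65.

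The promoter peaks of Trpm7 and Trpm4 were both less open in βTC6, while neither gene's RNA passed. At Trpm7, values were 41.3, 42.1, 41.3, 35.8 and 38.9 normalized reads in αTC1 and 24.7, 24.4, 24.7, 30.5 and 18.8 in βTC6. The lines did not overlap, and the log2 FC was -0.69 ± 0.11 (SE, limma, FDR 1.34e-05), against a median of -0.16 on chromosome 2. At Trpm4, the lowest αTC1 library was at 21.2 normalized reads and the highest βTC6 library at 17.8 (log2 FC -0.60 ± 0.12, SE, limma, FDR 1.03e-04). Relative to the chromosome 7 median of -0.57, the Trpm4 value was -0.03, and with chromosome medians removed in each library it was -0.31 and passed (limma, FDR 0.0327).

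The third comparison asked whether these peaks followed the percentage of βTC6 cells in the mixtures. For each gene the peak nearest to the start site and its peaks past the study's rule were taken, 12 in all, and Pearson's r was tested over the 9 mixtures by exact two-sided permutation, with FDR over all 65053 peaks. Of the 12, 8 passed, 6 rising and 2 falling with the βTC6 percentage, against 51.9% of all peaks (30.1% rising and 21.8% falling). Since these peaks were chosen partly for their difference between the pure lines, their number is a description.

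The Trpc1 element 33605 bp upstream rose at every step, from 1.02 normalized reads at 10% βTC6 through 3.36 at 50% to 7.53 at 90%. Its r was 0.97 (exact p = 5.51e-06, the smallest that 9 mixtures allow; Spearman's rho 1.0, exact p = 5.51e-06; FDR 3.83e-04), and r was 0.97 without the 10% and 90% mixtures. The Trpm5 element fell from 15.4 at 10% βTC6 through 9.35 at 50% to 4.98 at 90% (r = -0.96, exact p = 1.27e-04; rho -0.95, exact p = 3.53e-04; FDR 0.00126), with r of -0.96 without those mixtures. The Trpm2 element rose from 1.22 through 2.48 to 6.72 (r = 0.95, exact p = 2.76e-05; rho 0.98, exact p = 4.96e-05; FDR 6.28e-04), with r of 0.93 without them.

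The Trpm2 element also stayed below the value expected from its pure means in each of the 9 mixtures. The ratio of measured to expected value ran from 0.442 to 0.832 with a median of 0.656, and from 0.412 to 0.823 with the pure means of replicates 4 and 5 only. Over all peaks and mixtures the median ratio was 0.958, and 9.45% of all peaks were below the expected value in all 9 mixtures. Of the 12 peaks, the Trpm4 promoter was the other with all 9 below by the means of all replicates, at 0.477 to 0.999. By the means of replicates 4 and 5, the weak Trpm5 peak was below in all 9 as well, at 0.392 to 0.939.

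The 3 Trpm3 peaks rose with βTC6, with r of 0.88 at 100 bp upstream, 0.87 at 98380 bp and 0.82 at 29916 bp (exact p = 0.00158, 0.00143 and 0.00511). Their rho was 0.90, 0.77 and 0.85 (exact p = 0.00203, 0.0214 and 0.00607). The Trpc4 promoter rose from 11.4 normalized reads at 10% βTC6 to 28.2 at 90% (r = 0.87, exact p = 0.00106; rho 0.93, exact p = 7.50e-04), and the Trpm4 promoter fell from 18.9 to 7.40 (r = -0.76, exact p = 0.0201; rho -0.75, exact p = 0.0255). Without the 10% and 90% mixtures these 5 peaks kept their sign and no longer passed, with r of 0.75, 0.78, 0.84, 0.83 and -0.56. The promoter peaks of Trpc1 (r = 0.62), Trpv2 (0.29) and Trpm7 (-0.25) and the weak Trpm5 peak (0.13) did not pass, with exact p from 0.0750 to 0.739. Trpv2 and Trpm7 were 6.50 and 29.9 normalized reads at 10% βTC6 and 8.61 and 26.1 at 90%, although their pure lines did not overlap.

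**Figure D4:**
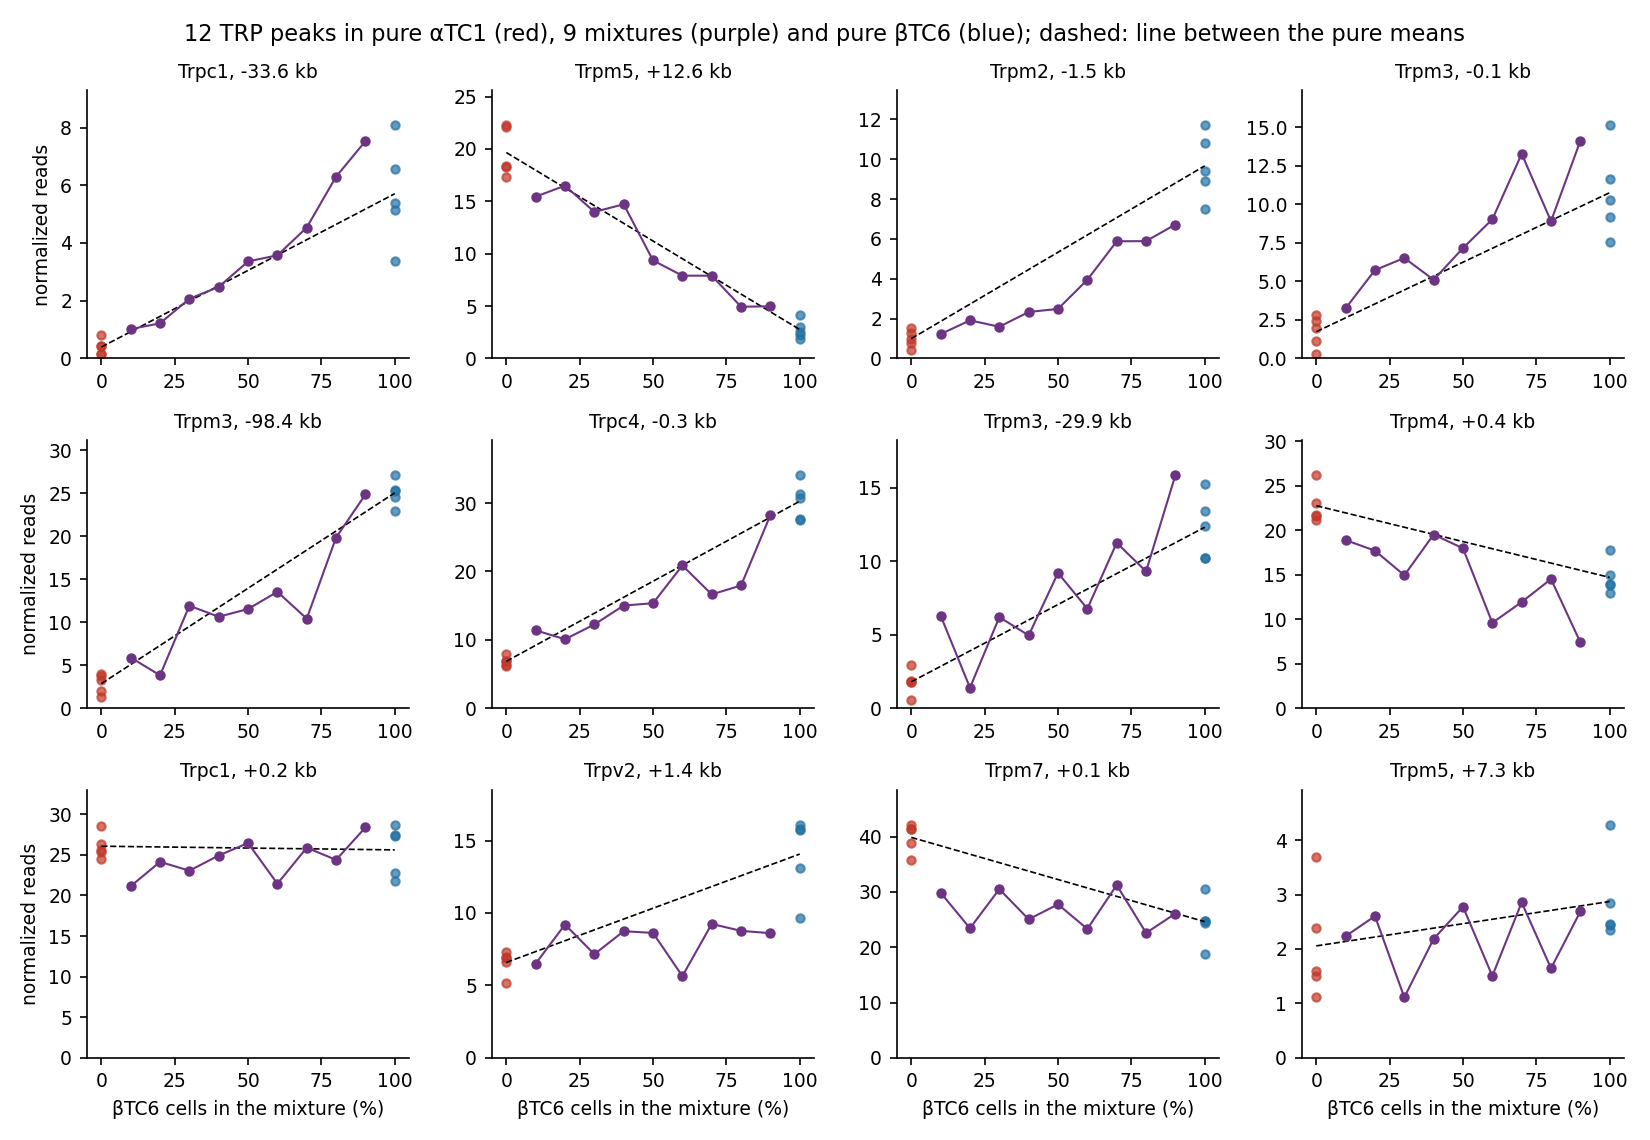
Normalized reads (vertical axis from 0) against the percentage of βTC6 cells for 12 TRP peaks, ordered by the size of r. Red and blue points are the 5 pure αTC1 and 5 pure βTC6 libraries, purple points the 9 mixtures and the dashed line joins the pure means; the Trpc1 element at 33605 bp rises at every step and the Trpm2 element lies below its dashed line throughout.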

How the data were processed

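RNA-seq was deposited as FPKM and estimated counts per gene from 3 αTC1 and 3 βTC6 libraries, made by the authors with Trim Galore 0.40, Bowtie2 (version given as 2.23) and RSEM 1.2.12 against Ensembl models. ATAC-seq was deposited as a TMM-normalized read signal for 65053 consensus peaks, made by the authors with Trimmomatic 0.32, BWA 0.7.9a, Picard 1.95, MACS2 2.1.0 and DiffBind 2.2.5 on mm9 and annotated with HOMER 4.6. A column of the authors' own differential calls was not used. The members and gene lists were chosen with earlier results of these data known.

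Counts were rounded, 92 spike-in rows (0.436% to 0.971% of counts) were left out, and genes with at least 1 FPKM in all 3 replicates of either line, the authors' filter, were tested with edgeR 4.0.16 (quasi-likelihood, TMM). RUVSeq, which the authors used, was not run, and ERCC scaling or 1 ERCC factor took its place. ATAC-seq was tested with limma 3.58.1 (trend) on log2(value + 1), with positions as deposited in mm9. In every library 100.0% of values were whole multiples of 1 read (tolerance 0.01 reads), and edgeR on these reads called 50397 peaks. Mixtures were tested by exact permutation with adjustment over all peaks, where adjustment over the named peaks had been planned. The scripts were tested on simulated data with R 4.3.3 and Python 3.11.15. Gene models were GENCODE on mm9, and all 8 genes matched.

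The genes named were the 8 channels, other TRP genes passing the filter, examples from the gene lists chosen after their values were seen, the 3 genes most like the member with the largest change in each direction (no member fell), and, per channel, the peak nearest to its start site and up to 2 peaks per direction past the study's rule. One gene of the TRP list is not reported here. Replicate numbers did not pair the libraries (correlations of same-numbered deviations -0.04 to 0.07). Depth limits low values, and floors of 3 counts cover counting error only.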

Additional observations from a re-analysis of the deposited data

Results flagged for a closer look

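In the 5 βTC6 ATAC-seq libraries, replicate 4 stood apart at the weak Trpm5 peak 7307 bp into the gene, with 4.28 normalized reads against 2.35 to 2.84 in the other 4. This was the only such library among 24 groups of 5 examined (12 peaks in 2 lines), and chance flags about 1 group in 20. The cause was not tested.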

How the results depend on the processing

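Adding the fold requirement left 1 channel gene, 1743 of all genes, 6 channel peaks and 11911 of all peaks. ERCC scaling called 2 channel genes (Trpm5 and Trpv2) and 3566 of all genes, with SEs of the channel log2 FC of 0.41 to 0.47. A mean of at least 5 normalized reads left 14 channel peaks to test and 12 passing, against 80.0% of the 42867 peaks left, of which 15044 were more and 19234 less open. Without the 10% and 90% mixtures 3 of the 12 peaks passed, against 22.4% of all peaks, with 7 mixtures left. Leaving out 1 library at a time gave 4 to 5 channel genes, 8337 to 9064 of all genes, 20 to 23 channel peaks and 49355 to 50499 of all peaks. With the replicate number as a block, the calls were 4 channel genes, 8920 of all genes, 23 channel peaks and 51129 of all peaks, and no call on a named gene or peak changed. Quantile normalization split the peaks past the fold requirement 5655 to 5126, against 8409 to 3502, and left 17 channel peaks passing (13 more and 4 less open), 4 of them past the fold requirement. A pseudocount of 0.5 or edgeR on reads put 9 channel peaks past the fold requirement, against 24.4% and 30.0% of all peaks, and a pseudocount of 5 put 0, against 3.82%. Testing every gene with at least 1 count called 5 channel genes, Trpc4 among them, and 11237 of 19570 genes.

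Values that changed sign were all of results that did not pass. The log2 FC of Trpm7 RNA was 0.027 without βTC6 replicate 2. That of the Trpc1 promoter peak was 0.25 relative to its chromosome's median (that of the Trpm5 peak at 7307 bp was 0.94 there), 0.17 under quantile normalization, 7.5e-04 in replicates 1 to 3, between -0.072 and 0.023 with 1 library left out (above 0 without αTC1 replicate 3, at 0.0017, or without βTC6 replicate 2, at 0.0081, or 4), and 0.086 with chromosome medians removed in each library, an alternative chosen after seeing the data. The Trpm5 peak at 7307 bp was -0.21 under quantile normalization, and its r was -0.0085 without the 10% and 90% mixtures, and that of Trpv2 was -0.014 there. The Trpm4 promoter peak missed the threshold in replicates 4 and 5 alone (log2 FC -0.57, FDR 0.0550). Of the other values recomputed for single genes and peaks, 321 kept their direction and their side of the threshold, or, where no test was made, moved by less than the spread between replicates. The cause of these changes was not tested.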

Other observations

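The Trpm5 gene body held 2 further peaks that were annotated to Tssc4, the gene that overlaps its 3′ end on the opposite strand. The first held 87.0 normalized reads on average in αTC1 and 57.1 in βTC6 (log2 FC -0.61, limma, FDR 6.00e-06), close to the chromosome 7 median of -0.57. The second was higher in βTC6, at 24.6 and 34.7 normalized reads (log2 FC 0.49, limma, FDR 5.28e-04). Of the 4 peaks over the gene, the element 12630 bp from the start site was thus the only one with an absolute log2 FC above 2.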
